A study of Mus musculus with 4 samples.

Results

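The interferon-gamma and cytotoxic effector genes examined here were 8 genes taken by symbol from the deposited expression table, Ifng, Gzma, Gzmb, Gzmc, Prf1, Nkg7, Ctsw and Eomes, out of 34745 gene rows. They are characteristic of T helper 1 (Th1), CD8 T and natural killer (NK) cells, and were measured here in cultures of T helper 17 (Th17) cells, the CD4+ subset that makes interleukin 17. RNA was sequenced from 2 libraries of Setd2-CD4 cre cultures, replicates 22 and 24, and from 2 libraries of wild-type (WT) cultures, replicates 13 and 15. All 4 cultures started from naive CD4+ T cells from the spleens of C57BL/6 animals and grew for 3 days under Th17-polarizing conditions. Setd2 encodes a methyltransferase of lysine 36 on histone H3, and Cre under Cd4 sequences acts in thymic precursors that also give rise to CD8 T cells. The sources used here do not give the exons removed, the alleles that WT mice carry, the age of the mice or whether each library came from its own animal.

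Interferon-gamma is the signature cytokine of Th1 cells and acts on macrophages and many other cells. Cytotoxic lymphocytes kill by releasing granules in which serglycin holds granzymes, a family of serine proteases, together with perforin, the protein that opens the target membrane. Naive CD4+ T cells use few of these genes, and their expression in helper cells is governed by T-box factors (T-bet, encoded by Tbx21, and Eomes) and by RUNX factors, among other regulators. Th17 cells that acquire interferon-gamma expression are well known in inflamed tissue.

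The genes did not move as a block. Ctsw, which encodes cathepsin W (lymphopain), a cysteine protease of cytotoxic lymphocytes, was 2.03-fold lower in Setd2-CD4 cre cultures, and Gzma, which encodes the tryptase granzyme A, was 1.73-fold higher. Both passed edgeR's quasi-likelihood test across all genes at a Benjamini-Hochberg adjusted p of 0.05. Ifng, Gzmb, Gzmc, Prf1, Nkg7 and Eomes did not pass. The count of 1 gene of 8 higher and 1 of 8 lower stands beside 16.2% of the 12927 tested genes called higher and 14.5% called lower (30.7% in either direction). The genotypes did not overlap for 4 of the 8 genes (1 higher, 3 lower), against 70.7% of all tested genes. The median log2 fold change (Setd2-CD4 cre over WT) of the 8 was -0.20, against -0.0088 over all tested genes. All 8 passed the filter on low counts.

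Libraries held 11007343 to 12518415 counts. Setd2 itself had 144 and 153 CPM in Setd2-CD4 cre cultures and 184 and 176 CPM in WT cultures, where CPM are counts relative to library size after scaling by trimmed mean of M values (TMM), and it did not pass the test (log2 fold change -0.28, edgeR adjusted p = 0.0748). It passed as lower with upper-quartile factors, library totals, limma-trend on FPKM and without Setd2-CD4 cre replicate 24 (-0.43 to -0.32). This whole-gene sum does not test a deletion of some exons. As a check of the cell type, Cd4 stood at 940 and 1139 CPM in Setd2-CD4 cre cultures and at 1121 and 1084 CPM in WT cultures. In bulk RNA, fewer cells of a type and less RNA per cell cannot be told apart. Of all calls, 2094 were higher and 1880 lower. The split moved to 1565 and 2617 with upper-quartile factors, 1409 and 2879 with library totals, and 1267 and 2746 with limma-trend on log2(FPKM + 1).

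None of the 8 genes was at or near the detection floor. The floor was set at 3 counts per library, near the upper limit for a gene seen with 0 counts. It equals 0.228 to 0.292 CPM and covers counting error only. It was a fixed setting, not computed in the way of the exact interval below. A gene was to be called near the floor with a mean under 10 counts in both genotypes. The lowest count of all was 17, for Eomes in Setd2-CD4 cre replicate 24, with an exact 95% Poisson interval of 9.90 to 27.2 counts. Gzmc, Ifng and Prf1 followed with lowest counts of 28, 41 and 46, and the lowest for Nkg7, Gzmb, Ctsw and Gzma were 169, 422, 810 and 1856.

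The start regions of these genes are shown because T-box and RUNX factors, whose own levels are described further on, are known to act on them. RefSeq promoter windows (GRCm38.p6, 250 bases before to 50 after the annotated start) were held for 7 of the 8 genes, all but Ctsw. Each is printed 5′ to 3′ on the strand of its gene, for Gzma at chr13:113100932-113101231 (minus), Gzmb at chr14:56262285-56262584 (minus), Prf1 at chr10:61297586-61297885 (plus) and Ifng at chr10:118440796-118441095 (plus). Capitals mark the RUNX core TGTGGT or its reverse complement.
Gzma promoter: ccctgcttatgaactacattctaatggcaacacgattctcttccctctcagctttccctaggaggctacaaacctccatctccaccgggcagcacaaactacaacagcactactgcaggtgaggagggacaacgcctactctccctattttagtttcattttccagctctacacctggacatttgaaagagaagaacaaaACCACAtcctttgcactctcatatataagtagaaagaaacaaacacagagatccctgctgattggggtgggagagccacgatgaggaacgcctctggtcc
Gzmb promoter: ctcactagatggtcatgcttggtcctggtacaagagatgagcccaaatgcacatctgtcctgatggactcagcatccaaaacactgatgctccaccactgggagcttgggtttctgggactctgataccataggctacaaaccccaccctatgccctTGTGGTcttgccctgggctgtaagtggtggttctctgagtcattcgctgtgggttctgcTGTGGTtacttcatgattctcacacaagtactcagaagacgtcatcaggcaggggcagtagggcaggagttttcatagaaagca
Prf1 promoter: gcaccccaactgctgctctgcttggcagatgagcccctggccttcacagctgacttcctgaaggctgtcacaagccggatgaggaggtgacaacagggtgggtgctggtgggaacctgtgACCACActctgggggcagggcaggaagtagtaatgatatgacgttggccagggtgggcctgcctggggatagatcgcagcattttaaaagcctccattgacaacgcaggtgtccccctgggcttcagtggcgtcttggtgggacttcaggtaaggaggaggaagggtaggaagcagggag
Ifng promoter: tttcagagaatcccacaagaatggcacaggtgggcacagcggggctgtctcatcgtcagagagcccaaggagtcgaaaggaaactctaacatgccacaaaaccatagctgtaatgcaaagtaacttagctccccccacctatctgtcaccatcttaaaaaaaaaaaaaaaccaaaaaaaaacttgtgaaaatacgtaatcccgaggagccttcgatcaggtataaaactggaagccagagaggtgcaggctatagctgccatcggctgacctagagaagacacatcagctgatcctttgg
The letters TGTGGT, on either strand, were found in 5 of the 7 windows and in 16.8% of 32817 promoter windows of the same length. Gzma had 1 match starting 50 bases before its start, Gzmb had 2 at 93 and 34 bases, Prf1 had 1 at 130 bases, and Gzmc and Nkg7 had 2 and 1. Ifng and Eomes had none in this window. The T-box core GGTGTGA, on either strand, matched in Nkg7 alone, 13 bases before the start, and in 3.98% of all windows. All positions are counted from the RefSeq start of the window, which can differ from the deposited locus. For Nkg7 (window 43436888 to 43437187) that start and the T-box match lie inside the locus, which begins at 43437073. The Gzmb window lies wholly outside its locus, which ends at 56262260. The AP-1 site TGANTCA matched in Gzmb alone (7.81% of all windows) and TATAAA in Ifng alone (13.6%), and none of the matches to the 4 motifs overlapped another. The motifs were chosen with the values known, and genes with a RUNX match were Gzma, which was higher, and 4 that did not pass.

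The table's locus column places Gzmb (ENSMUSG00000015437, chromosome 14, 56258856 to 56262260, minus strand) and Gzmc (ENSMUSG00000079186, 56231401 to 56234656, minus strand) as neighbours in a granzyme cluster, and Gzma (ENSMUSG00000023132) on chromosome 13 at 113093825 to 113100979. Reads can be shared between family members, so how alike they are bears on every granzyme count. Below is the coding stretch with the longest identical run between Gzmb and Gzmc, in capitals, at coding bases 332 to 420 of Gzmb and 335 to 423 of Gzmc (GENCODE M21 transcripts, GRCm38).
Gzmb stretch: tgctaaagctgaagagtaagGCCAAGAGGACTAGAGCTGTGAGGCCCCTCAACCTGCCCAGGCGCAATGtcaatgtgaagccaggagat
Gzmc stretch: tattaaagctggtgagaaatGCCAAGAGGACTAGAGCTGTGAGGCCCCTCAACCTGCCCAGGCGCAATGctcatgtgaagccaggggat
That run is 49 bases long, and the coding sequences were 76.0% identical over 751 aligned columns. Gzma was 54.7% identical to Gzmb, with no identical run above 11 bases. No 50-base word of the Gzma or Gzmb transcripts occurred in any of the 9 other granzyme genes compared, and 35 of 845 words of Gzmc did (4.14%). That word length lies just above the 49-base run, so the result for Gzmb depends on it. Identical coding runs of Gzmc with Gzme (68 bases), Gzmg (67) and Gzmd (52) were longer than that with Gzmb. No 100-base word of Gzma, Gzmb or Gzmc was shared. The sources used here do not give read length or the handling of shared reads, so the Gzmc count carries that uncertainty.

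**Figure D1:**
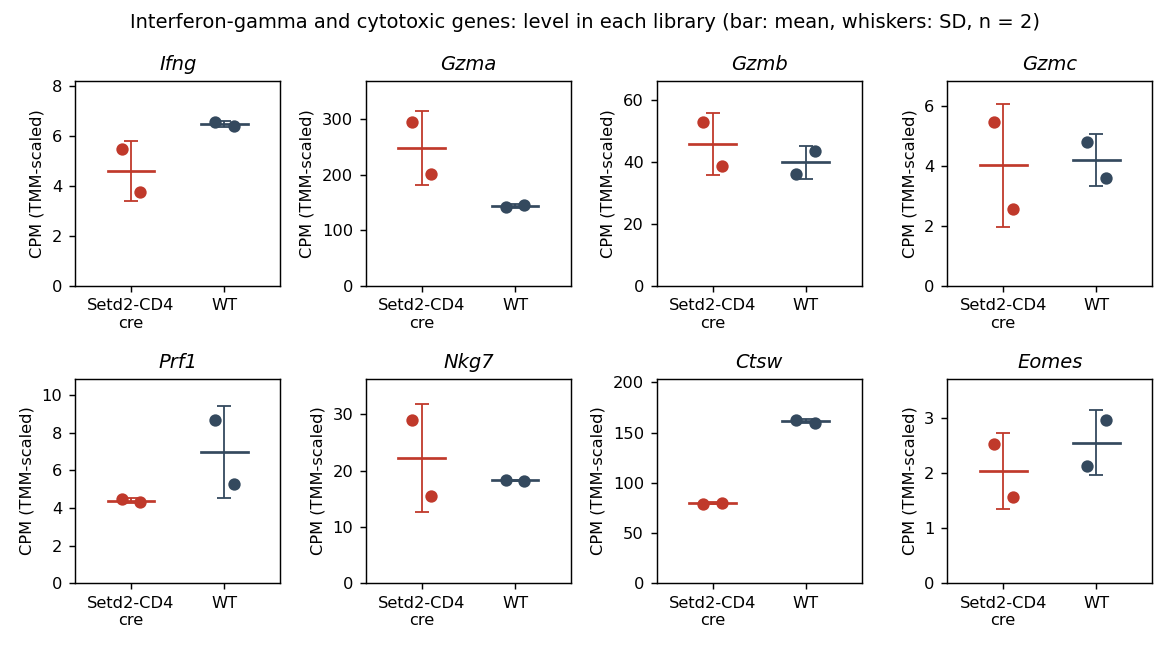
Level of each gene in TMM-scaled CPM (vertical axes start at 0 and differ by gene) in Setd2-CD4 cre and WT libraries, with points for libraries, bars for means and whiskers for SD (n = 2 each). Ctsw lies at 78.9 and 80.2 CPM in Setd2-CD4 cre and 163 and 160.0 CPM in WT, and Gzma at 295 and 201 CPM against 142 and 146 CPM.

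Per length, the order of the levels was nearly the same in both genotypes. By deposited FPKM (values scaled for gene length and library depth), Gzma was highest with 314 and 220 in Setd2-CD4 cre cultures and 169 and 176 in WT cultures, the 99.2 and 98.8 percentiles of all tested genes. Ctsw came next, at 59.7 and 62.7 FPKM in Setd2-CD4 cre cultures and 138 and 137 FPKM in WT cultures. Gzmb followed and then Nkg7. Gzmc, Ifng and Prf1 lay between 2.02 and 5.69 FPKM in every library, and Eomes between 0.210 and 0.440 FPKM, at the 5.88 and 7.04 percentiles. Neighbours in this order did not overlap, except Gzmc and Ifng in Setd2-CD4 cre cultures and Gzmc and Prf1 in WT cultures.

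Ifng (ENSMUSG00000055170, chromosome 10, 118441047 to 118445892, plus strand) had 5.46 and 3.76 CPM in Setd2-CD4 cre cultures and 6.56 and 6.40 CPM in WT cultures. Both Setd2-CD4 cre libraries lay below both WT libraries, as they did for 36.1% of all tested genes. Means and SD were 4.61 ± 1.2 CPM in Setd2-CD4 cre and 6.48 ± 0.114 CPM in WT (n = 2 each). The log2 fold change of -0.49 (SE 0.29, 95% interval -1.16 to 0.17) did not pass (edgeR adjusted p = 0.220). By limma-trend on log2(FPKM + 1) it did, at -0.54 (adjusted p = 0.0465). Without Setd2-CD4 cre replicate 24 it was -0.24, and without replicate 22 it was -0.78, neither of which passed. In GENCODE M21 another gene on the same strand, Gm49751, overlaps Ifng over 2722 bases. Use of strand in counting would not separate these genes.

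Eomes (ENSMUSG00000032446, chromosome 9, 118478212 to 118486132, plus strand), the T-box factor of CD8 T and NK cells, had 2.53 and 1.56 CPM in Setd2-CD4 cre cultures and 2.13 and 2.97 CPM in WT cultures. The genotypes overlapped, and the log2 fold change was -0.32 (SE 0.42, 95% interval -1.30 to 0.65, edgeR adjusted p = 0.586). At 17 to 39 counts per library, the interval does not exclude a change of over 2-fold downward. An antisense gene, Gm33460, overlaps Eomes over 574 bases in GENCODE M21, and the sources used here do not say whether counting used strand.

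Of the granule proteases, Gzma had 295 and 201 CPM in Setd2-CD4 cre cultures and 142 and 146 CPM in WT cultures. Both Setd2-CD4 cre libraries were above both WT libraries, as for 34.6% of tested genes, and they differed from each other more than the WT libraries did. Means and SD were 248 ± 66.8 CPM in Setd2-CD4 cre and 144 ± 2.98 CPM in WT (n = 2 each), and the gene passed with edgeR adjusted p = 0.0176 at a log2 fold change of 0.79 with SE 0.18. The call was lost without WT 13 (0.76, edgeR adjusted p = 0.0668) and without WT 15 (0.81, 0.0647), and held in the other 10 settings tried. Leaving out Setd2-CD4 cre replicate 22 gave 0.49 on the log2 scale.

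Gzmb, the protease that cleaves caspases and BID in target cells, had 53.0 and 38.7 CPM in Setd2-CD4 cre cultures and 36.2 and 43.6 CPM in WT cultures. The genotypes overlapped (log2 fold change 0.20, SE 0.18, 95% interval -0.22 to 0.62, edgeR adjusted p = 0.431). Gzmc, a granzyme of strongly activated T cells in the mouse, had 5.46 and 2.57 CPM against 4.80 and 3.58 CPM in WT cultures (log2 fold change -0.07, 95% interval -1.0 to 0.87, edgeR adjusted p = 0.911). Its lowest and highest library both belonged to Setd2-CD4 cre. Within a library, where scaling cancels, the FPKM ratio of Gzma to Gzmb was 9.0 and 8.38 in Setd2-CD4 cre cultures and 6.31 and 5.39 in WT cultures.

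Prf1 (ENSMUSG00000037202, chromosome 10, 61297836 to 61304263, plus strand), the perforin gene, had 4.48 and 4.31 CPM in Setd2-CD4 cre cultures and 8.69 and 5.25 CPM in WT cultures. The genotypes did not overlap, with most of the spread between the WT libraries. The log2 fold change of -0.66 (SE 0.32, 95% interval -1.40 to 0.07) did not pass (edgeR adjusted p = 0.144) and was -0.26 without WT 13. Nkg7 (ENSMUSG00000004612, chromosome 7, 43437073 to 43438249, plus strand), which encodes a granule membrane protein needed for efficient granule release, had 29.0 and 15.5 CPM in Setd2-CD4 cre cultures. In WT cultures it had 18.4 and 18.2 CPM, between the Setd2-CD4 cre libraries. Its log2 fold change was 0.28 (SE 0.29, 95% interval -0.40 to 0.96, edgeR adjusted p = 0.482).

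Ctsw (ENSMUSG00000024910, chromosome 19, 5465240 to 5468498, minus strand) gave the clearest difference. It had 78.9 and 80.2 CPM in Setd2-CD4 cre cultures and 163 and 160.0 CPM in WT cultures, with replicates of each genotype close together and far from the other genotype. Means and SD were 79.6 ± 0.933 CPM in Setd2-CD4 cre and 161 ± 2.05 CPM in WT (n = 2 each). The log2 fold change was -1.02 (SE 0.10, 95% interval -1.26 to -0.78) and passed with edgeR adjusted p = 0.00121. It passed in all 12 settings tried, at -1.17 to -1.0. GENCODE M21 has the end of Fibp, on the opposite strand, overlapping Ctsw by 9 bases. Fibp, with 235 and 241 counts in Setd2-CD4 cre and 437 and 351 in WT, had a log2 fold change of -0.42 and did not pass (edgeR adjusted p = 0.0824). The FPKM ratio of Gzma to Ctsw within a library, a pair chosen after the values were seen, was 5.25 and 3.51 in Setd2-CD4 cre cultures and 1.22 and 1.28 in WT cultures.

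**Figure D2:**
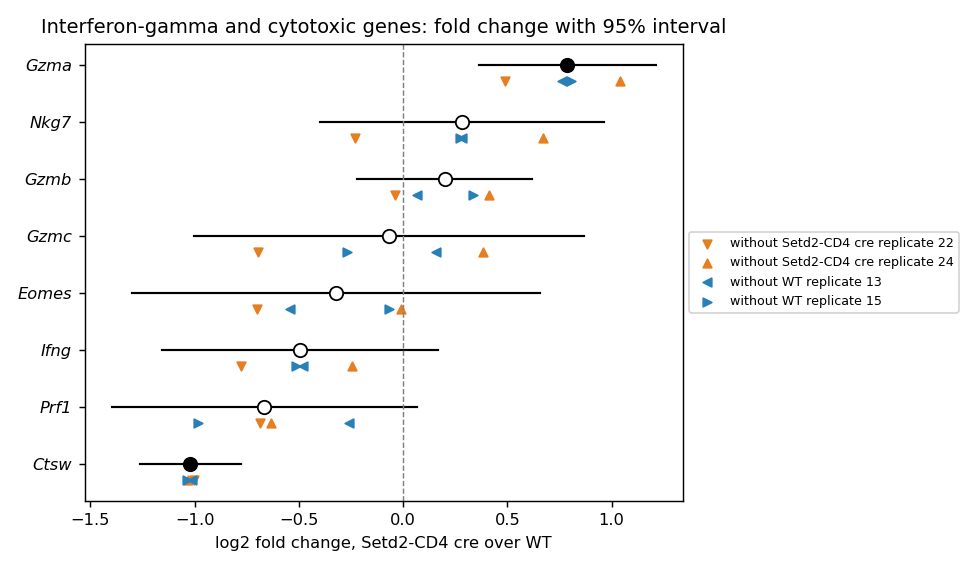
Log2 fold change (Setd2-CD4 cre over WT, horizontal axis) of each gene with its 95% interval, filled circles marking the genes that passed; the coloured triangles under each line are the values with 1 library left out. Gzma at 0.79 and Ctsw at -1.02 are filled, and the triangles of Nkg7, Gzmb and Gzmc fall on both sides of 0.

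The Setd2-CD4 cre libraries differed from each other for most of these genes. CPM in replicate 22 was over 1.3 times that in replicate 24 for 6 of the 8 genes, with ratios from 1.37 for Gzmb to 2.12 for Gzmc, a limit chosen after the values were seen. The ratio was 1.04 for Prf1 and 0.984 for Ctsw. Over 12451 tested genes with a mean of at least 10 counts in these libraries, 14.0% exceeded that ratio and the median ratio was 1.0. Without replicate 24, Nkg7 (log2 fold change 0.67, edgeR adjusted p = 0.0016) and Gzmb (0.41, 0.0209) joined Gzma as higher. Without replicate 22 their log2 fold changes were -0.23 and -0.038. Each of these fits left 1 library of the genotype, taken to vary like the WT libraries.

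Markers of other lymphocytes also differed between libraries, and their part in the results was not tested. Cd8a, of CD8 T cells, had 75.3 and 24.8 CPM in Setd2-CD4 cre cultures and 35.2 and 50.6 CPM in WT cultures, and Cd8b1 had 51.9 and 20.4 CPM against 20.7 and 22.0 CPM. Both were thus highest in replicate 22 and passed in neither direction (log2 fold changes 0.22 and 0.76, edgeR adjusted p = 0.833 and 0.312). The 13 NK-associated genes summed to 266 and 164 CPM in Setd2-CD4 cre cultures and 49.9 and 54.3 CPM in WT cultures. Of 9 tested, 6 were higher (66.7%) and 0 lower, beside 16.2% and 14.5% of all tested genes. All 6 were lectin-like receptor genes or their adaptor Tyrobp, some of which activated T cells also express. Of the defining NK genes, Ncr1 had 1 and 0 counts in Setd2-CD4 cre and 0 and 6 in WT, and Klrb1c had 6 and 2 counts against 17 and 5, too few for either to be tested. Klra8 had 0 counts in every library.

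The same shares of all tested genes, 16.2% higher and 14.5% lower, stand beside the lists that follow. Of 6 tested gamma-delta T cell genes 2 were higher (33.3%) and 0 lower, with sums of 72.4 and 62.2 CPM in Setd2-CD4 cre and 20.7 and 17.4 CPM in WT. The 2 were Blk, which B cells also express, and 5830411N06Rik. Those genes carried the difference, since the other 7 of the list summed to 13.2 and 11.2 CPM in Setd2-CD4 cre and 14.3 and 10.5 CPM in WT. The defining Trdc stood at 6.62 and 2.93 CPM against 4.88 and 4.19 CPM. Of 10 B cell genes 8 were higher (80%) and 0 lower, with sums of 672 and 493 CPM in Setd2-CD4 cre and 254 and 214 CPM in WT. Of 5 CD4 T cell genes 1 was higher (20%) and 3 were lower (60%), with sums of 2402 and 2657 CPM in Setd2-CD4 cre and 2727 and 2620 CPM in WT. These 4 calls were lost without WT 13 and without WT 15. Myeloid genes (1 of 6 higher, 0 lower) summed to 34.5 and 26.3 CPM against 28.7 and 25.9 CPM in WT. The 1 was Flt3 (log2 fold change 2.28, edgeR adjusted p = 0.00659), with means of 16.2 CPM in Setd2-CD4 cre and 3.31 CPM in WT. The median log2 fold change of the 6 was -0.76, and genotypes did not overlap for 3 lower and 2 higher. The myeloid sum thus does not describe the genes other than Flt3. Of 6 mast cell and basophil genes only Kit was abundant enough to be tested and it was higher, while Fcer1a was at 0 in every library.

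**Figure D3:**
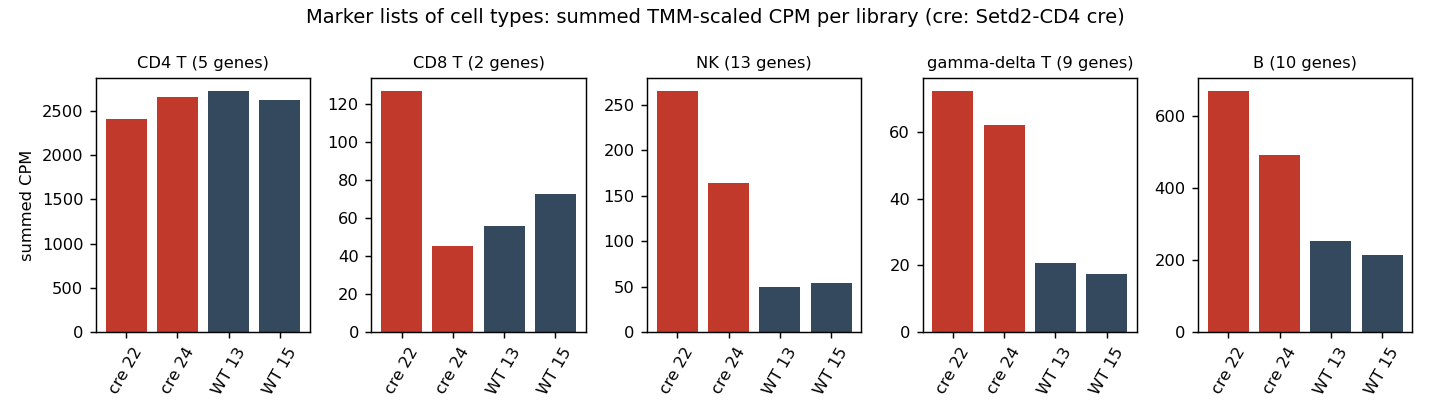
Summed CPM (vertical axes start at 0 and differ by panel) of the marker lists of 5 cell types in each library, with Setd2-CD4 cre libraries (cre 22 and cre 24) left of WT libraries. The sums of the NK, gamma-delta T and B lists are higher in both Setd2-CD4 cre libraries, the gamma-delta T sum through Blk and 5830411N06Rik, and the CD8 T list is highest in replicate 22 at 127 CPM.

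The other granzymes were nearly silent. Gzmd, Gzmg and Gzmn had 0 counts in every library, and Gzme and Gzmf had 0 counts in Setd2-CD4 cre cultures and at most 2 in a WT library. Gzmk, which lies near Gzma and encodes another tryptase, was the only 1 of the 7 abundant enough to be tested. It had 0.487 and 1.93 CPM in Setd2-CD4 cre cultures and 2.97 and 3.43 CPM in WT cultures, and did not pass (log2 fold change -1.39, SE 0.56, edgeR adjusted p = 0.0959). It passed as lower without Setd2-CD4 cre replicate 24 (-2.69, adjusted p = 0.00131) and by limma-trend on log2(FPKM + 1) (-0.76, adjusted p = 0.0417).

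Among 21 genes, most of them of granule assembly and release, 6 were higher, 2 lower and 13 did not pass, with a median log2 fold change of 0.20. These are 28.6% higher and 9.52% lower, beside 16.2% and 14.5% of all tested genes. The list also held the surface receptor genes Slamf7 and Crtam and the receptor adaptor gene Hcst, of which only Slamf7 passed. Stx11, a syntaxin gene of granule fusion, had 100 ± 7.60 CPM in Setd2-CD4 cre cultures and 56.6 ± 3.66 CPM in WT cultures (SD, n = 2 each), with edgeR adjusted p = 0.00319 at a log2 fold change of 0.82. Slamf7, a receptor gene of activated lymphocytes, had 17.9 ± 5.71 and 6.86 ± 0.546 CPM (1.38, SE 0.26, adjusted p = 0.00749). Ap3b1, an adaptor gene of lysosome-related organelles (0.67, edgeR adjusted p = 0.00733), and Calr, the calreticulin gene (0.56, 0.00931), were also higher. Ap3b1 and Calr lost their calls without WT 13 (adjusted p = 0.0535 and 0.128) and without WT 15 (0.0547 and 0.107). The number higher was 2 without WT 13 and 3 without WT 15, and none was lower in those fits.

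Of 7 tested genes for death ligands, the receptor Fas and serpins, 3 were higher, 1 lower and 3 did not pass (median 0.53). That is 42.9% and 14.3%, beside the same 16.2% and 14.5%. The serpin gene Serpinb9 was among those that did not pass (log2 fold change 0.60, edgeR adjusted p = 0.0762). Serpinb6b, a serpin gene related to those that inhibit granzymes, had 253 and 184 CPM in Setd2-CD4 cre cultures and 59.2 and 49.0 CPM in WT cultures (log2 fold change 2.01, SE 0.18, edgeR adjusted p = 0.00106). Serpinb6a was higher as well (1.09, SE 0.13, edgeR adjusted p = 0.00172). Fas (0.53, edgeR adjusted p = 0.0105) no longer passed when WT 13 or WT 15 was left out (adjusted p = 0.0644 and 0.151). Serpinb1a was lower (-0.66, edgeR adjusted p = 0.0457), a call lost by limma-voom (0.0519) and without Setd2-CD4 cre replicate 22 (0.0657), replicate 24 (0.169) or WT 15 (0.344). Fasl, the ligand of Fas, had 13.2 and 7.52 CPM in Setd2-CD4 cre cultures and 8.39 and 9.37 CPM in WT cultures and did not pass (0.22, edgeR adjusted p = 0.582), but did without Setd2-CD4 cre replicate 24 (0.58, 0.0441).

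Of 26 tested genes of Th1 identity and interferon-gamma control, 8 were higher, 5 lower and 13 did not pass (median 0.15). The shares were 30.8% higher and 19.2% lower, beside 16.2% and 14.5% of all tested genes. Tbx21 had 8.38 and 8.62 CPM in Setd2-CD4 cre cultures and 8.01 and 7.39 CPM in WT cultures, and did not pass (edgeR adjusted p = 0.643). Its log2 fold change, 0.14 with SE 0.22, turned negative with library totals and on the FPKM scale (-0.0076 and -0.0058). Zeb2, a factor gene that acts beside T-bet in effector T cells, had 53.4 and 53.0 CPM in Setd2-CD4 cre cultures and 18.0 and 17.2 CPM in WT cultures (log2 fold change 1.59, SE 0.14, edgeR adjusted p = 0.000763). Runx3 had 361 and 338 CPM against 165 and 180 CPM in WT cultures (1.02, SE 0.11, adjusted p = 0.00123). Of the other RUNX genes on the list, Cbfb, which encodes the partner subunit of all RUNX factors, was lower, with 181 and 169 CPM in Setd2-CD4 cre cultures and 227 and 236 CPM in WT cultures (-0.40, edgeR adjusted p = 0.0228). That call was lost without WT 13 or WT 15 (adjusted p = 0.142 and 0.212). Runx1 had 71.0 and 73.6 CPM against 75.3 and 75.1 CPM in WT cultures and did not pass (-0.056, edgeR adjusted p = 0.724). Nfil3, a factor gene of NK cell development, was higher (0.97, edgeR adjusted p = 0.00148). The numbers higher and lower were 4 and 2 without WT 13, 3 and 0 without WT 15, and 10 and 9 without Setd2-CD4 cre replicate 24.

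Of 26 tested genes that interferon-gamma is known to induce, 4 were higher, 8 lower and 14 did not pass, with a median log2 fold change of -0.27. The share higher was 15.4%, near the 16.2% of all tested genes, and the share lower was 30.8%, beside 14.5%. Tgtp1, a GTPase gene of cell-autonomous immunity, had 6.53 and 4.77 CPM in Setd2-CD4 cre cultures and 20.1 and 26 CPM in WT cultures (-2.03, SE 0.23, edgeR adjusted p = 0.00146). Iigp1, of the same wider GTPase family (-1.69, SE 0.27, edgeR adjusted p = 0.00408), and Socs1, a feedback inhibitor gene of cytokine signalling (-1.09, SE 0.15, adjusted p = 0.00218), were lower as well. Cd274, the PD-L1 gene, was higher, with 186 and 171 CPM in Setd2-CD4 cre cultures and 78.4 and 78.3 CPM in WT cultures (1.19, SE 0.11, edgeR adjusted p = 0.000943). Ciita, the MHC class II regulator gene that B cells also express, named after its value was seen, was higher (2.89, edgeR adjusted p = 0.00669). The number lower was 5 without WT 13 and 4 without WT 15. Many of these genes are also induced by type I interferon.

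Of 3 tested T cell effector chemokine genes 1 was lower and 0 were higher (33.3% lower, beside 14.5% of all tested genes). Ccl5, the gene of the chemokine RANTES, had 20 and 20 counts in Setd2-CD4 cre cultures and 80 and 54 counts in WT cultures (-1.43 on the log2 scale, SE 0.36, edgeR adjusted p = 0.0205), and did not pass once WT 13 was left out (0.190).

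**Figure D4:**
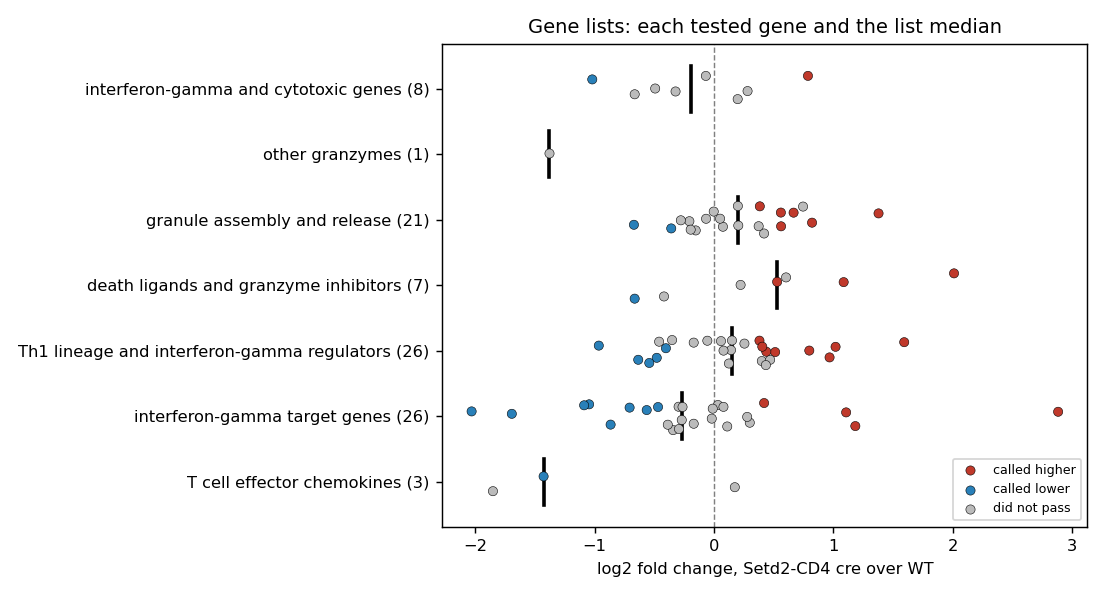
Log2 fold change (Setd2-CD4 cre over WT, horizontal axis) of each tested gene of the 8-gene group and of 6 lists of related genes, with the number tested in brackets and the list median as a black bar. Medians run from -1.43 for 3 chemokine genes to 0.53 for death ligands and granzyme inhibitors.

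Genes with the library profile most like that of Ifng were sought among 9798 tested genes with a mean of at least 5 CPM, by the distance between log2 CPM values centred on each gene's own mean over the 4 libraries. The nearest were Ifi30 (distance 0.0402), Fgf13 (0.0828), Ttc27 (0.0857), Trappc2 (0.0873) and Smim10l1 (0.0880). For Gzmb they were Got2-ps1 (0.0315), Mrpl15 (0.0342), mt-Nd1 (0.0354), Tex264 (0.0477) and Tcea1-ps1 (0.0612). Among the 8 genes themselves the nearest pair was Gzmb and Nkg7 at 0.372 and the farthest was Gzma and Ctsw at 1.83. These distances describe 4 libraries, 2 of each genotype, and carry no test.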

How the data were processed

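Per the file headers, the authors' table holds a count and an FPKM value for each gene and library; the deposited counts are whole numbers. Bowtie2, RSEM, GRCm38.p6 and mm10 are named in the submitters' processing notes without roles. RSEM estimates need not be whole, and the sources used here give neither rounding, strand use nor the treatment of shared reads. Libraries held 11007343 and 11322621 counts (Setd2-CD4 cre 22 and 24) and 12518415 and 12414098 counts (WT 13 and 15, the second numbered 14 in its cell type label). Replicates differed beyond counting noise (chi-square per degree of freedom 17.4 over 13600 genes in Setd2-CD4 cre and 8.27 over 13814 in WT). Nothing says that libraries came from separate animals or cultures, so the p-values describe the spread among these 4 libraries alone, part of which may be technical.

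Counts were tested with edgeR 4.0.16 in R 4.3.3 (TMM factors, filterByExpr by genotype, robust quasi-likelihood fit, Benjamini-Hochberg adjustment over 12927 genes, threshold 0.05). A run of this step on simulated counts checked the code only. It had far fewer changed genes than were called here, so it does not bear on the calls. Positive log2 fold changes mean higher in Setd2-CD4 cre. The SE is the log2 fold change over the root of the F statistic, and 95% intervals use it with edgeR's degrees of freedom. With 2 libraries against 2, the smallest two-sided p of an exact permutation test is 0.333, so none is reported. Alternatives used DESeq2 1.42.0, limma 3.58.1, other scalings and filters, and each library left out. Named genes are the 8, up to 4 genes with the smallest p-values past the threshold per list, and Tbx21, Gzmk, Gzmd, Fasl, Cd8a, Cd8b1, Cd4, Ncr1, Klrb1c, Trdc and Setd2. A few others under the same rule are not reported here. Further genes (Gm33460, Gm49751, Fibp, Cbfb, Runx1, Ciita, Blk, 5830411N06Rik, the other lectin-like receptor genes, Klra8, Tyrobp, Kit, Fcer1a and the silent granzymes) were chosen after their values were seen. So were Flt3, Serpinb9, Crtam and Hcst. The genes, lists and tests were chosen with earlier results of these data known, so list counts are descriptions and no list was tested as a set. Reading frames and identities came from GENCODE M21 transcripts with Biopython 1.88.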

Additional observations from a re-analysis of the deposited data

How the results depend on the processing

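Over the 12 alternatives, Ctsw kept its direction and call, Prf1 and Eomes kept their direction and did not pass, and Gzma kept its direction. With 1 library left out, genes called higher ranged from 718 to 3068 and lower from 564 to 2903, and of the 8 genes 0 to 3 were higher. In those fits log2 fold changes ranged from 0.49 to 1.04 for Gzma, -0.038 to 0.41 for Gzmb, -0.70 to 0.38 for Gzmc, -0.23 to 0.67 for Nkg7 and -0.23 to 0.58 for Fasl, so the signs of the last 4 rested on single libraries. List counts ranged from 2 to 8 higher and 0 to 3 lower (granule genes), 2 to 5 and 0 to 1 (death ligands and inhibitors), 3 to 12 and 0 to 9 (Th1 regulators), 3 to 6 and 4 to 11 (interferon-gamma targets), and 0 to 2 lower (chemokines) and 0 to 1 lower (other granzymes). On log2(FPKM + 1), limma-trend called 1267 genes higher, 2 of the 8 lower with Ifng at -0.54, 4 Th1 regulators higher, 1 other granzyme lower and 2 chemokines lower, and Tbx21 was at -0.0058. Library totals gave 2879 genes lower, 4 Th1 regulators higher and Tbx21 at -0.0076. DESeq2 called 1 granule gene lower, and limma-voom called 0 death ligand or inhibitor genes and 2 chemokines lower. The median of all genes was -0.12 with upper-quartile factors, -0.16 with library totals and -0.12 on the FPKM scale. The causes of these changes were not tested. No paired analysis was possible because the genotypes share no replicate number. Depth limits Eomes, Gzmc, Ifng and Prf1 most, at 17 to 114 counts per library.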
